A study of Rattus norvegicus with 6 samples.

Results

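The enzymes that remove superoxide and peroxides were followed in the substantia nigra pars compacta of 6 rats: the superoxide dismutases Sod1, Sod2 and Sod3, catalase (Cat), and the glutathione peroxidases Gpx1, Gpx3 and Gpx4. Members were all array probes whose accession, without its version, is a rat RefSeq transcript of one of these 7 genes. The 7 are among 4013 genes that the array's probes name. This gave 9 of 33849 probes, with 2 probes each for Sod1 and Gpx3 and 1 for each other gene. Of the 9, 8 were above background on all 6 arrays and were tested among 16708 probes, and the Cat probe was not.

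The rats were male Sprague Dawley animals, 5 months old. Pumps under the skin delivered rotenone at 0.5 mg/kg per day to 3 rats (numbers 16, 13 and 9) for 28 days. The 3 control rats (numbers 11, 7 and 1) received the solvent by the same route: dimethylsulfoxide and polyethylene glycol with the dispersing agent Pluronic F-127, which the rotenone rats also received. The region was cut out by laser capture, and each animal was measured on an array of its own with a single colour. It was a tissue region, not sorted cells, so a lower value can come from fewer cells of a type or from less RNA per cell, and these cannot be told apart.

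Superoxide dismutases turn superoxide into hydrogen peroxide, which catalase and the glutathione peroxidases then reduce to water. The family is divided by place: SOD1, a copper and zinc enzyme, works in the cytosol, SOD2, a manganese enzyme, in the mitochondrial matrix, and SOD3 outside the cell. Catalase sits in peroxisomes. GPX1 works in the cytosol and mitochondria, GPX3 is secreted, and GPX4 reduces lipid peroxides in membranes. GPX1, GPX3 and GPX4 are selenoproteins. Rotenone blocks respiratory complex I, a source of mitochondrial superoxide, and dopamine neurons also make hydrogen peroxide when monoamine oxidase breaks down dopamine. The question put to the data was whether the cytosolic, mitochondrial, secreted and peroxisomal forms differed between the groups.

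No enzyme of the family passed the test. The secreted Sod3 had the largest difference, 0.66 higher with rotenone on the log2 scale, while Sod1, Gpx1 and Gpx4 differed by -0.32 to -0.40, Gpx3 by -0.04 to -0.19 and Sod2 by 0.14. The low means of Sod1 and Gpx1 rested on 1 animal, rotenone rat 16. Of the 8 tested probes, 6 had lower and 2 had higher means with rotenone. Over all tested probes, 48.4% had lower means. The median difference was -0.26 over the 6 tested genes (brightest probe of each) and 0.0089 over all tested probes. At an adjusted p below 0.05 in limma's moderated test, 0 of the 8 probes and 0 of 16708 (0%) were called. At an unadjusted p below 0.05 it was 1 of 8, the probe of Sod3, against 825 of all probes (4.94%). In none of the 8 did the 3 rotenone values lie apart from the 3 solvent values, which was so for 9.97% of all probes. The plot of log2 intensity by rat shows each probe's 6 values.

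**Figure D1:**
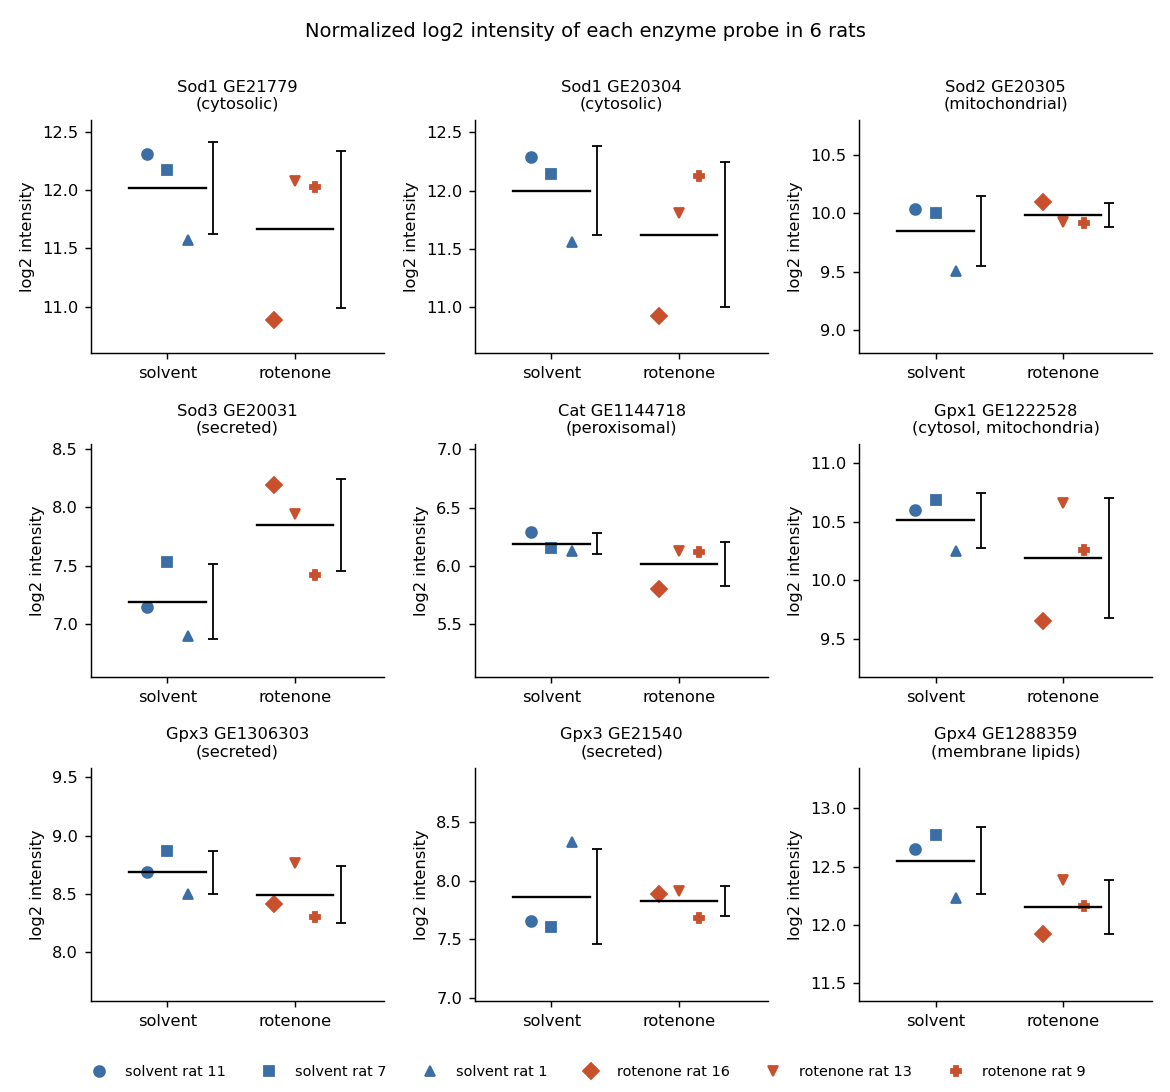
Normalized log2 intensity (vertical axes, each spanning 2 log2 units) of the 9 probes in solvent rats 11, 7 and 1 (blue) and rotenone rats 16, 13 and 9 (orange), with group means as horizontal lines and SD (n = 3) as bars. Sod3 has a higher rotenone mean (7.85 against 7.19), and rotenone rat 16 is the lowest of the 6 for Sod1 and Gpx1.

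The array of rotenone rat 16 stood apart. Across tested probes it correlated with the rest at 0.931 on average, where the others reached 0.956 to 0.964, and 44.2% of its probes were above background, against 48.6% to 51.5%. Before normalization its median net intensity (spot minus background) was 11.7, against 13.9 to 16.6 on the others. Sums of net intensity given below are not normalized. The quality weight of this array in limma was 0.394, the others' 0.918 to 1.74. Values without this rat are given beside those of the enzymes and of the partner genes named for their difference. The file of solvent rat 7 carries a different header day from the other 5, and leaving this rat out gives the values within that day. Of 12 listed dopamine neuron markers, 9 were on the array and all 9 had a measured probe, including Th and Slc6a3. A probe counted as measured with at least 3 of 6 arrays above background, which Pitx3 met through its 3 solvent arrays alone. All markers on the array were also measured for oligodendrocytes (8), GABA neurons (6) and blood cells (4), though not for the other cell types. This count therefore cannot tell the pars compacta from other tissue, and the tissue label was not tested. The scanner marked many of the enzymes' spots as irregular in shape (3 to 6 of 6 for each tested probe). At the Sod1 probe GE20304 all rotenone spots and no solvent spot were so marked. At the Sod3 probe all rotenone spots were, and of the solvent spots only that of rat 7. With irregular spots left out no enzyme probe could be tested. Probes differ in brightness for the same amount of RNA, so no level is compared between genes.

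Sequence upstream of the start was available for 6 of the 7 genes in RefSeq's rat assembly GRCr8, and Sod3 had none in the table used. The 250 bases before the start are shown for Sod1 and Gpx1, which were both low on the array of rat 16, and for Sod2, which was not. Capitals mark matches, on either strand, to the GC box (GGGCGG), the CCAAT box (CCAAT), the TATA box (TATAAA) and the antioxidant response element (TGACNNNGC), the motif that the factor NRF2 binds.
Sod1, chr11:42942573-42942822, plus strand: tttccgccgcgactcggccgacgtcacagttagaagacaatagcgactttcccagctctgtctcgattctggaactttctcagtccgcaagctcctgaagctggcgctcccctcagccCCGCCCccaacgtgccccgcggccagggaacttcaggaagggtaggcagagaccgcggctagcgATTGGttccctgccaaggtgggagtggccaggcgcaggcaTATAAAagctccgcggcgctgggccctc
Gpx1, chr8:117905212-117905461, plus strand: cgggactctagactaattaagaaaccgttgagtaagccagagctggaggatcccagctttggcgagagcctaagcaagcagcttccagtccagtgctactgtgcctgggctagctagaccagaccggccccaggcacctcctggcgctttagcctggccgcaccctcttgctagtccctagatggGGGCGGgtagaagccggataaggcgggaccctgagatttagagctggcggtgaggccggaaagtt
Sod2, chr1:50050169-50050418, minus strand: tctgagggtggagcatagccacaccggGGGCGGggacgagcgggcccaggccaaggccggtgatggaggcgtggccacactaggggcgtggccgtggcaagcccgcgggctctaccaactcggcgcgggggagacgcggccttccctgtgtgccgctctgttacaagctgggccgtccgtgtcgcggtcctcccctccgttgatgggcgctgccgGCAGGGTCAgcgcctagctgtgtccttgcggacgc
The Sod1 stretch held a TATA box 28 bases before the start, a CCAAT box and a GC box. Of 33469 such upstream stretches, 12.9% held a TATA box, 34.0% a CCAAT box and 30.5% a GC box. The Gpx1 stretch held 1 GC box and none of the other motifs. Sod2 had a GC box and the only match to the antioxidant response element among the stretches of the 6 genes, 35 bases before its start, where 10.1% of all stretches held one. Of the other members, Cat had 4 CCAAT matches and no GC box, and Gpx3 had 1 GC box. For Gpx4, 2 of the 3 listed starts shared the same 4 GC box matches, of which 2 overlap by 1 base. These starts also held 3 and 2 CCAAT matches, and the remaining Gpx4 start held none of the motifs. No match overlapped one of another kind. A match describes letters only, and binding was not measured.

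Sod1, the cytosolic dismutase, was measured by 2 probes. At GE21779 the normalized log2 intensity was 12.31, 12.17 and 11.57 in solvent rats 11, 7 and 1, and 10.89, 12.07 and 12.03 in rotenone rats 16, 13 and 9. The groups overlapped: rotenone rats 13 and 9 lay between the solvent values, and rat 16 lay below all others. The means were 12.02 ± 0.39 (SD, n = 3) with solvent and 11.66 ± 0.67 with rotenone. This put rotenone -0.35 from solvent, with a 95% interval of -1.06 to 0.36 (limma, unadjusted p = 0.296, adjusted p = 0.900). The other probe, GE20304, gave 12.28, 12.14 and 11.56 with solvent and 10.93, 11.81 and 12.13 with rotenone, a difference of -0.38 (interval -1.05 to 0.30). Within an array, GE21779 minus GE20304 was -0.10 to 0.27 over the 6 rats. Before normalization the same order was seen, with net intensities (spot minus background) at GE21779 of 4981, 4722 and 3011 with solvent and 1814, 4162 and 4040 with rotenone. The lowest animal was rat 16 at both probes.

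Without rotenone rat 16 the differences of Sod1 were 0.03 (interval -0.50 to 0.57) and -0.03 (interval -0.58 to 0.52). At GE21779 the direction thus turned. This array was 1.14 below the mean of the other 5 at that probe (-1.14), and 1.07% of all tested probes were as low or lower there. Markers of neurons in general, and of some other cells, were low on the same array. Of that list (14 genes, 9 on the array by name), the 8 measured genes all had a lower rotenone mean. The median was -0.28. The summed net intensity of the 9, which is not normalized, was 6551 to 7217 with solvent and 3301 to 5793 with rotenone. The median net intensity of the arrays was itself 14.6 to 16.6 with solvent and 11.7 to 14.8 with rotenone, so array brightness enters these sums. The lowest sum was that of rat 16, whose array also had the lowest median net intensity, and Snap25 was above background on no array. Without rat 16, 6 of the 8 had lower means and the median was -0.11. Every measured marker of this list but Syn1 was lowest in rat 16. Syn1 was at 6.20 there, within its solvent values of 6.28, 6.24 and 6.19 and above rats 13 and 9 (6.04 and 6.03). Its probe was dim, above background on 3 solvent arrays and 1 rotenone array. On the array of rat 16 the measured neuron markers had a median of -0.54 from their own means and astrocyte markers -0.41. Markers of GABA neurons were at -0.27, of endothelium and pericytes at -0.22 and of oligodendrocytes at -0.20. Those of dopamine neurons were at -0.14, of microglia and macrophages at -0.09 and of blood cells at -0.07. The summed net intensity of dopamine neuron markers was highest in rat 16 (31339, solvent 20598 to 29126). That of astrocyte markers, 13890, was within the solvent range (13239 to 14803), on the array with the lowest median net intensity. The part of cell content in the Sod1 values was not tested. Sod1 at GE21779 was also at -0.58 without solvent rat 1, -0.56 without rotenone rat 13, -0.53 without rotenone rat 9 and -0.20 without solvent rat 11. At GE20304 it was -0.59 without solvent rat 1, -0.63 without rotenone rat 9 and -0.23 without solvent rat 11.

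The 3 genes nearest to Sod1 over the 6 arrays, each centred on its own mean, were Stmn2, a tubulin-binding protein of growing neurites, the ribosomal protein gene Rpl10, and Nae1, a subunit of the enzyme that activates NEDD8. Their root mean square distances were 0.06, 0.08 and 0.09, where Sod1 itself varied by 0.48 about its mean, and the search covered 1707 named genes. Stmn2, one of the neuron markers above, was at 9.77, 9.76 and 9.07 with solvent and 8.49, 9.53 and 9.48 with rotenone. Ccs, the chaperone that loads copper into SOD1, was at 8.54, 8.48 and 8.23 with solvent and 7.73, 8.58 and 8.23 with rotenone, a difference of -0.24 (interval -0.73 to 0.26) that was -0.01 without rat 16. Its values also had their lowest point in rat 16.

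Sod2, the mitochondrial dismutase, varied least of the superoxide dismutases. Its probe GE20305 gave 10.03, 10.00 and 9.50 in solvent rats 11, 7 and 1, and 10.10, 9.93 and 9.92 in rotenone rats 16, 13 and 9. The rotenone values spanned 0.18, and 5 of the 6 rats lay between 9.92 and 10.10, with solvent rat 1 alone below them. The means were 9.85 ± 0.30 (SD, n = 3) and 9.98 ± 0.10, with a difference of 0.14 (interval -0.28 to 0.55, adjusted p = 0.924 in limma). Without solvent rat 1 the difference was -0.04, without rotenone rat 16 it was 0.08, and without solvent rat 11 or 7 it was 0.23 or 0.21. The net intensity of Sod2 in rotenone rat 16, 965, was within the range of the solvent rats (721 to 1045), unlike that of Sod1. The nearest genes were Strbp, Adi1 and Calm2, one of the calmodulin genes, at distances of 0.06 to 0.07, and Sod2 varied by 0.19 about its own mean.

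Sod3, the secreted dismutase, was the one enzyme whose 95% interval left out 0. Its probe GE20031 gave 7.15, 7.54 and 6.90 in solvent rats 11, 7 and 1, and 8.19, 7.94 and 7.42 in rotenone rats 16, 13 and 9. Rotenone rats 16 and 13 lay above every solvent rat, and rotenone rat 9 lay below solvent rat 7, so the groups overlapped by 1 rat. The means were 7.19 ± 0.32 (SD, n = 3) and 7.85 ± 0.39, and the difference was 0.66 ± 0.24 (SE), or 1.58-fold, with an interval from 0.13 to 1.19. In limma the unadjusted p was 0.0195 and the adjusted p 0.895, and the exact permutation test over rats gave p = 0.2 (two-sided), where 3 rats against 3 cannot go below 0.1. Differences of this size or more, in either direction, were found at 1.31% of all tested probes.

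The Sod3 spots were dim beside the array's bright spots, with net intensities of 89.1, 142 and 71.1 with solvent and 193, 197 and 112 with rotenone, over a local background of 38 to 43. The scanner marked none of these spots as near background. It marked as irregular the spots of all rotenone rats and, with solvent, that of rat 7 only. The size of the difference moved with the processing. It was 0.81 with an offset of 16 and 0.96 with plain subtraction, 0.97 on the authors' scaled intensity, and 0.55 with median scaling. Without rotenone rat 16 the difference was 0.49 (interval -0.06 to 1.03, unadjusted p = 0.0743 in limma), and without rotenone rat 9 it was 0.87 (unadjusted p = 0.00476, adjusted p = 0.775). The direction held in each of these. The unadjusted p was above 0.05 also without solvent rat 11 (0.0503), solvent rat 1 (0.0779) or rotenone rat 13 (0.0501), with array weights (0.0695, difference 0.45) and without moderation (0.0888).

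SOD3 is bound to the matrix around vessels, so markers of vessels, choroid plexus and meninges are given beside it. The 6 measured genes of endothelium and pericytes (13 listed, 7 on the array by name) had 3 higher and 3 lower means and a median of 0.0014. They did not move together. Slco1a4 and Flt1 (differences of 0.30 and 0.13) were highest in rat 16, as Sod3 was. Tagln (0.17), Pdgfrb (-0.20) and Rgs5 (-0.13) were lowest there, and Abcc9 (-0.21) was neither. The summed net intensity of the 7 on the array, which is not normalized, was 613 to 651 with solvent and 499 to 846 with rotenone. It was lowest in rat 16, where Sod3 was highest, but that array also had the lowest median net intensity (11.7, others 13.9 to 16.6). After normalization the measured genes stood at a median of -0.22 from their own means there. Kdr, an endothelial receptor, was above background on no array. Of 9 markers of ependyma, choroid plexus and meninges on the array (12 listed), 6 including the choroid marker Ttr were never above background. The 3 measured (Folr1, Col1a2 and Igf2) had a median difference of 0.26 and stood at a median of 0.56 above their own means in rat 16. The net intensity of all 9, also not normalized, summed to 925 to 2144 with solvent and 1127 to 2307 with rotenone (2111 in rat 16). Their part in the Sod3 values was not tested. The nearest genes to Sod3 were Cyp4a8, Cript and Dyrk1a, at distances of 0.18 to 0.22, where Sod3 varied by 0.44. Each lay farther from Sod3 than Stmn2 from Sod1.

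**Figure D2:**
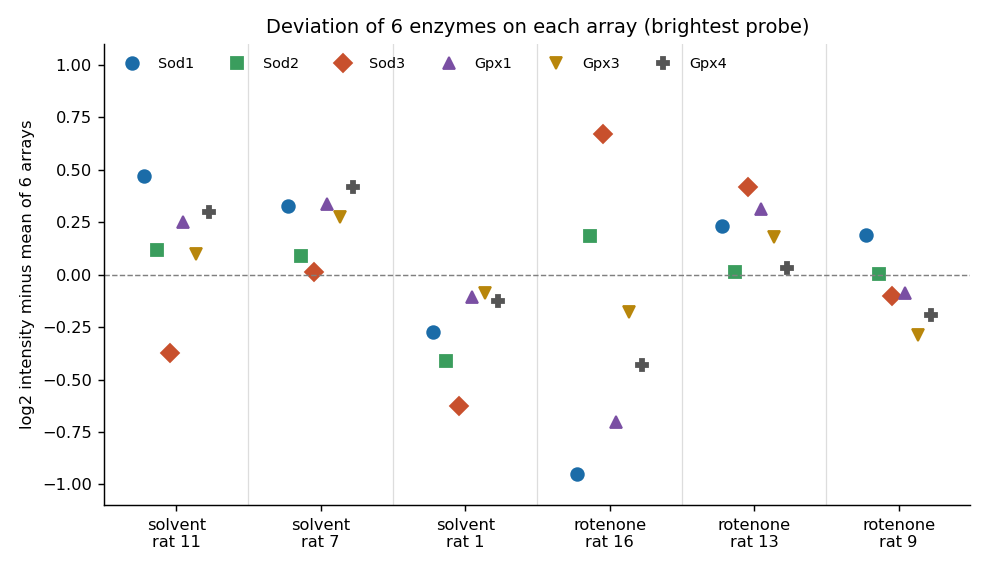
Deviation of each enzyme from its mean over the 6 arrays (log2, vertical axis; brightest probe per gene) on the arrays of 3 solvent and 3 rotenone rats. On the array of rotenone rat 16, Sod3 lay 0.67 above and Sod1 0.95 below their means (-0.95), while Sod2 lay at 0.18.

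Catalase could not be followed. Its probe GE1144718 was above background in solvent rat 11 only, where the net intensity was 23.4, against 17.1 and 16.1 in solvent rats 7 and 1 and -0.43, 14.5 and 13.1 in rotenone rats 16, 13 and 9. The normalized values were 6.29, 6.15 and 6.13 with solvent and 5.80, 6.13 and 6.12 with rotenone, with means of 6.19 and 6.02. With 1 of 6 arrays above background, no fold is given. A probe at background does not show that the gene is silent. Of genes of the peroxisome, where catalase acts, 15 of 33 listed were measured. None passed the test, 4 had higher and 11 lower means, and the median was -0.13 (all probes: 0.0089). Without solvent rat 7 the list's median was 0.01. Hacl1, of fatty acid alpha-oxidation, and Gnpat, which starts the making of ether lipids, had the largest differences among those above background throughout, at -0.32 and -0.31. For Gnpat the solvent values (6.51, 6.73 and 6.54) lay above the rotenone values (6.38, 6.25 and 6.24), with an unadjusted p of 0.0792 in limma. Its difference was -0.50 with an offset of 16 (p = 0.0441), -0.87 with plain subtraction (p = 0.0152) and -0.90 on the authors' scaled intensity (p = 0.00876), unadjusted in limma. Hacl1 was at -0.51 under the latter 2 settings and at -0.17 without rotenone rat 16. The groups also lay apart, the other way, for the peroxisomal membrane gene Pxmp2 (solvent up to 8.27, rotenone from 8.28), with a difference of 0.17. This makes 1 of 15 genes in each direction, where 4.89% of all probes lay apart as lower and 5.08% as higher with rotenone.

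Gpx1, the main cytosolic glutathione peroxidase, gave 10.60, 10.69 and 10.25 with solvent and 9.65, 10.66 and 10.26 with rotenone at probe GE1222528. As for Sod1, rotenone rats 13 and 9 lay within the solvent range and rat 16 lay below it. The means were 10.51 ± 0.23 (SD, n = 3) and 10.19 ± 0.51, which differ by -0.32 (interval -0.88 to 0.24; adjusted p = 0.897 in limma). Without rat 16 the difference was -0.05 (interval -0.52 to 0.42), and without rotenone rat 13 it was -0.56 (unadjusted p = 0.0434 in limma). This array was lower than the mean of the others by 0.85 (-0.85), a depth reached by 3.72% of all probes. The nearest genes were the translation factor subunit gene Eif2b4, Fbxo6 and the SOD1 chaperone gene Ccs, at distances of 0.07 to 0.09, where Gpx1 varied by 0.36. Ccs is one of the partner genes described with Sod1.

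Microglia are among the brain cells that hold GPX1, and their markers are given beside it. Of 10 listed, 6 were on the array by name and 4 were measured, 1 with a higher and 3 with a lower mean and a median of -0.11. The summed net intensity of the 6 was 1645 to 2149 with solvent and 1557 to 1894 with rotenone, and Cx3cr1 was above background on no array. Their part in the Gpx1 values was not tested.

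Gpx4, which protects membrane lipids, had a lower mean with rotenone that rested less on rat 16. Probe GE1288359 gave 12.65, 12.77 and 12.23 with solvent and 11.92, 12.38 and 12.16 with rotenone. Rotenone rats 16 and 9 lay below every solvent rat, and rat 13 lay between solvent rats 1 and 11. The means were 12.55 ± 0.29 (SD, n = 3) and 12.15 ± 0.23, a difference of -0.40 ± 0.20 (SE), interval -0.84 to 0.05, with an unadjusted p of 0.0755 and an adjusted p of 0.895 in limma. It was -0.28 without rotenone rat 16 (interval -0.75 to 0.19), -0.56 without solvent rat 1 (unadjusted p = 0.0230 in limma), -0.51 without rotenone rat 13 (0.0436) and -0.19 on the authors' scaled intensity. GPX4 is made in mitochondrial, cytosolic and nuclear forms, and the single probe was not resolved into these. Its nearest genes were Arl2, Pex14, of import into peroxisomes, and Calm3, at distances of 0.07 to 0.08, where Gpx4 varied by 0.29.

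Gpx3, the secreted glutathione peroxidase, was measured by 2 probes that disagreed. The brighter, GE1306303, gave 8.69, 8.86 and 8.50 with solvent and 8.41, 8.77 and 8.30 with rotenone, a difference of -0.19 (interval -0.60 to 0.22, adjusted p = 0.904 in limma). The other, GE21540, gave 7.66, 7.61 and 8.33 with solvent and 7.89, 7.91 and 7.68 with rotenone, a difference of -0.04 (interval -0.51 to 0.44). Solvent rat 1 was the highest of the 6 at GE21540 and only the fourth highest at GE1306303, so the gap between the probes ran from 0.17 in that rat to 1.26 in solvent rat 7. Without solvent rat 1 the difference at GE21540 was 0.20. Neither probe followed the low array of rat 16 as Sod1 did: it lay 0.21 below the mean of the others (-0.21) at the brighter probe and 0.05 above it at the other. The nearest genes to the brighter probe were Npr2, Pcdhb12 and Lgals5, at distances of 0.08, where it varied by 0.20.

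**Figure D3:**
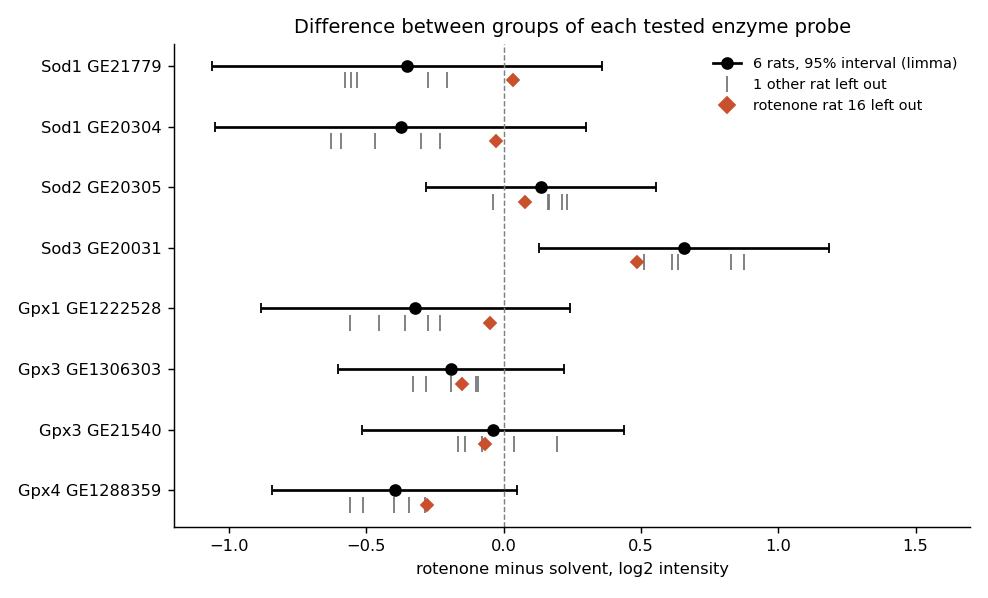
Rotenone minus solvent (log2 intensity, horizontal axis) for the 8 tested probes, with 95% intervals from limma (black), the value with rotenone rat 16 left out (orange diamonds) and with each other rat left out (grey ticks). Only the interval of Sod3 (0.13 to 1.19) leaves out 0, and the Sod1 and Gpx1 values move to within 0.05 of 0 without rat 16.

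To compare the forms, the value of one probe was subtracted from that of another on the same array, and these within-array differences were compared between groups by an exact permutation test over rats. There were 8 pairs, fixed by form, and the smallest p this test can give is 0.1. None passed after adjustment over the 8 pairs (smallest adjusted p = 0.533).

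Sod3 minus Sod1 was 1.01 higher with rotenone (interval -0.65 to 2.67, exact p = 0.1, the smallest possible). The within-array difference was -5.16, -4.63 and -4.67 in solvent rats 11, 7 and 1, and -2.70, -4.13 and -4.61 in rotenone rats 16, 13 and 9. The groups lay apart by 0.02 only, between solvent rat 7 and rotenone rat 9, and they overlapped with median scaling (exact p = 0.3), plain subtraction, an offset of 16 and the authors' scaled intensity (exact p = 0.2 each). Without rotenone rat 16 the value was 0.45. Sod3 minus Sod2 was 0.52 higher (interval -0.10 to 1.14, exact p = 0.2). Those values were -2.89, -2.47 and -2.60 with solvent and -1.91, -1.99 and -2.50 with rotenone, and without rat 16 the value was 0.41. Rats 16 and 13 lay above all solvent rats and rat 9 within them.

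Sod2 against Sod1, the mitochondrial against the cytosolic form, gave -2.28, -2.16 and -2.07 with solvent and -0.79, -2.15 and -2.11 with rotenone. On 5 of the 6 arrays the pair stood within 0.21, and rat 16 alone departed. The rotenone mean was 0.49 higher (interval -0.76 to 1.74, exact p = 0.4), and 0.04 higher without that rat. Among the peroxidases, Gpx3 against Gpx1 differed between the groups by 0.13 (interval -0.53 to 0.79), Gpx4 against Gpx1 by -0.08 (interval -0.53 to 0.38) and Gpx3 against Gpx4 by 0.21 (interval -0.15 to 0.56), with exact p values of 0.9, 0.7 and 0.2. The secreted enzymes stood at 0.66 (Sod3) and -0.19 (Gpx3, brighter probe), a pair that was not compared by a test. Gpx4 against Gpx1 turned in sign with median scaling (0.0083) and on the authors' scaled intensity (0.03), and Gpx3 against Gpx1 without rat 16 (-0.10). Cat against Gpx1 and Sod1 differed by 0.15 and 0.18, but Cat lay at background, and these turned to -1.21 and -1.19 with plain subtraction.

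**Figure D4:**
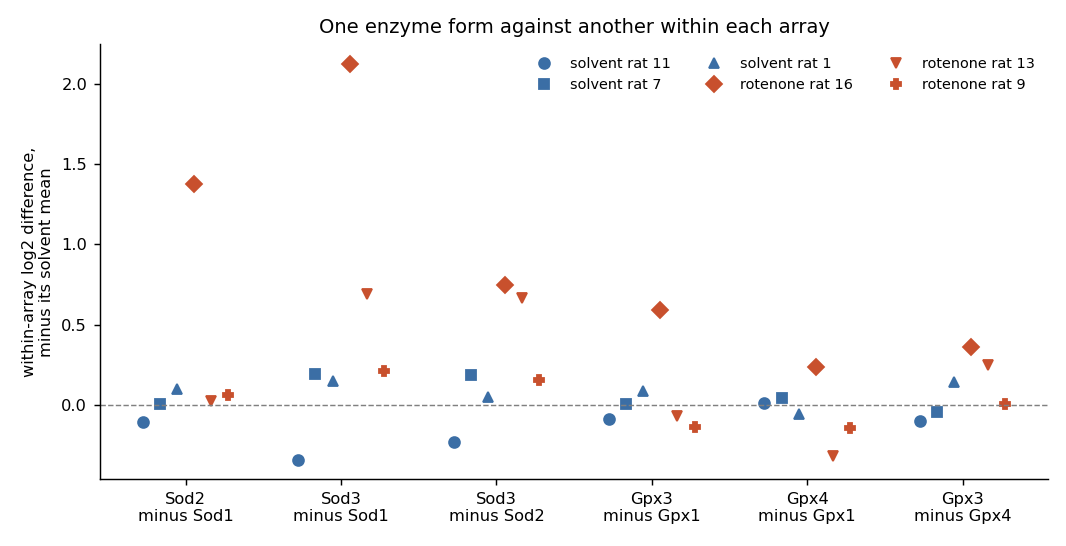
Within-array log2 difference of 1 enzyme form minus another, less its solvent mean (vertical axis), for 6 pairs in 3 solvent (blue) and 3 rotenone rats (orange). Rotenone rat 16 is the highest point of each pair, and Sod3 minus Sod1 is the one pair whose groups do not overlap, by a gap of 0.02.

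The enzymes work with partners that supply reduced thioredoxin and glutathione, load metals or insert selenium, and of 41 such genes listed, 24 were on the array by name and 19 were measured. None passed the test. 5 had higher and 14 lower means, the median was -0.16 (all probes: 0.0089), and at an unadjusted p below 0.05 there were 2 higher (1.99% of all probes) and 1 lower (2.95%). Without rotenone rat 16 the median was 0.01. Txnrd1, which keeps thioredoxin reduced, gave 6.93, 6.79 and 7.17 with solvent and 7.82, 7.26 and 7.50 with rotenone. The groups did not overlap (so for 5.08% of all probes in this direction), and the difference was 0.56 (interval 0.13 to 0.99, unadjusted p = 0.0155, adjusted p = 0.895 in limma). A second probe of Txnrd1 was not above background on any array. Prdx6, a peroxiredoxin that takes electrons from glutathione, gave 10.55, 10.86 and 10.75 with solvent and 11.66, 11.01 and 11.11 with rotenone, also without overlap, a difference of 0.54 (interval 0.09 to 0.99, unadjusted p = 0.0242). Without rat 16 these were 0.42 and 0.34. For Prdx6 the unadjusted p in limma was then 0.0726, and it was above 0.05 also without solvent rat 11 (0.0847), with an offset of 16 (0.0503), with plain subtraction (0.0831), on the authors' scaled intensity (0.0681) and without moderation (0.0709). For Txnrd1 it was 0.0628 without solvent rat 7, and the difference was 0.90 with plain subtraction. Both were highest in rat 16, as Sod3 was.

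Selenop, which carries selenium to cells that make the peroxidases, gave 7.17, 7.33 and 6.90 with solvent and 5.78, 6.83 and 6.87 with rotenone, a difference of -0.64 (interval -1.27 to -0.02, unadjusted p = 0.0443, adjusted p = 0.895 in limma). The groups lay apart by 0.04, between solvent rat 1 and rotenone rat 9 (4.89% of all probes had no overlap in this direction), and 1 of the 3 rotenone arrays was not above background. Without rat 16 the difference was -0.29. It was -1.04 with an offset of 16, -2.25 on the authors' scaled intensity and -2.47 with plain subtraction. The unadjusted p in limma was above 0.05 on the last pair (0.147 and 0.155), without rat 16 (0.142), solvent rat 11 (0.0922) or solvent rat 7 (0.124), with array weights (0.0689), with no background correction (0.0530), with no filter on dim probes (0.0665) and without moderation (0.164). Selenow, another selenoprotein gene, differed by -0.64 (interval -1.70 to 0.41) and by 0.01 without rat 16, and Prdx2, a cytosolic peroxiredoxin, by -0.59 (interval -1.38 to 0.21) and by -0.13 without it. Without rotenone rat 13 Prdx2 was at -0.86 (unadjusted p = 0.0378 in limma). Rat 16 was the lowest of the 6 rats for Selenow, Prdx2, Selenop, Sod1 and Gpx1. It was also the lowest for the mitochondrial genes Prdx3 (7.87, next 7.91) and Txnrd2 (6.84, next 6.85), by smaller margins. Gpx2, a peroxidase best known from gut, differed by -0.42 ± 0.26 (SE), and by -0.16 without rat 16.

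**Figure D5:**
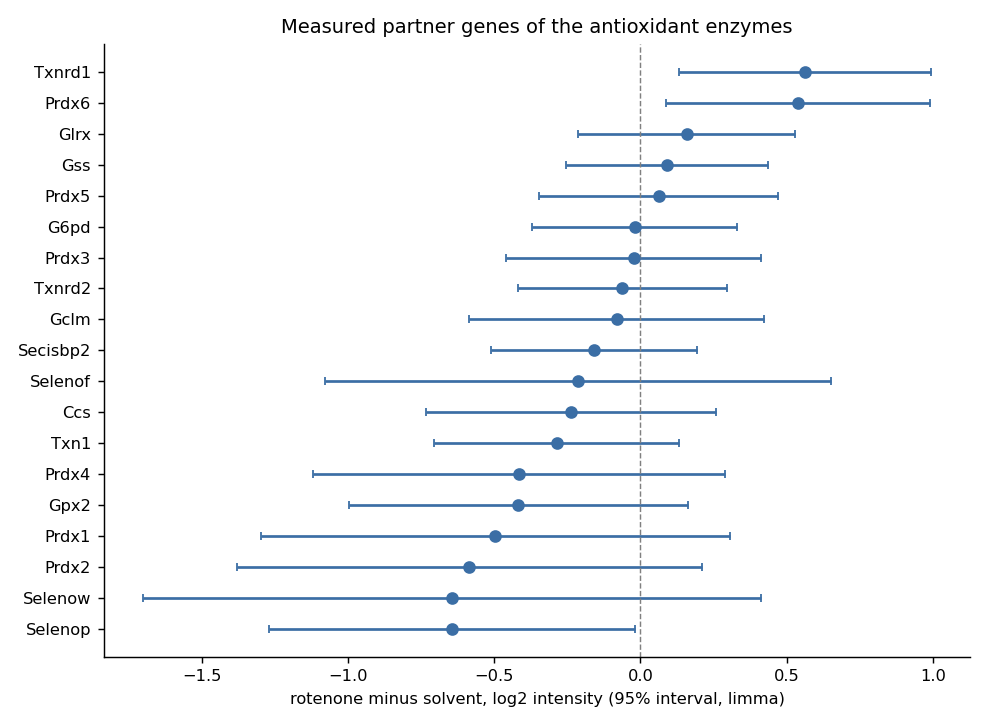
Rotenone minus solvent (log2 intensity, horizontal axis, with 95% intervals from limma) for the 19 measured partner genes, in order of their difference. Txnrd1 (0.56) and Prdx6 (0.54) are the 2 with intervals above 0 and Selenop (-0.64) the 1 below it, and none passed the adjusted test.

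Of genes that make superoxide or peroxide, 7 of 25 listed were measured, 2 with higher and 5 with lower means and a median of -0.02. Ncf1, a subunit of the phagocyte oxidase, differed by 0.25 (interval -0.15 to 0.65), by 0.15 with median scaling and by 0.40 without rotenone rat 9, and Ero1a, an oxidase of the endoplasmic reticulum, by -0.06 (interval -0.64 to 0.51). Of regulators of antioxidant genes, 5 of 23 were measured, 2 higher and 3 lower, with a median of -0.0017. Hif1a, a factor that responds to low oxygen, differed by 0.46 (unadjusted p = 0.0866 in limma), by 0.74 without solvent rat 11 (0.00461) and by 0.24 without solvent rat 7 (0.341), and Tfam, of mitochondrial DNA, by 0.04 (interval -0.37 to 0.46). None of either list passed the test, and with all 6 rats none was below an unadjusted p of 0.05.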

How the data were processed

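Each rat's RNA (2 µg, amplified and labelled with biotin, per the labels' protocols) was measured on 1 CodeLink array. The deposited scanner files hold linear intensity: spot mean, background median, their difference, and the authors' scaled intensity, whose array medians were 0.994 to 0.999. A deposited table repeats the scaled intensity. Its scale and direction are not stated, its column medians were 0.994 to 1.00, 5 columns equalled the scanner files, and the column for solvent rat 7 matched its own file at only 0.898% of probes, so the table served as an alternative alone.

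Accessions were matched without version to RefSeq names (GRCr8), which named 4675 of 33849 probes. Normexp background correction (offset 50) came first, control spots were then dropped, and quantile normalization gave log2 values. Probes above background on at least 3 of 6 arrays entered limma 3.58.1 under R 4.3.3 (two-sided; Benjamini-Hochberg over all 16708). The test was tried on simulated data. Irregular spots (29.4% to 36.3% per array) were kept. In lists, a gene's brightest tested probe was used.

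Named were all enzyme probes, list genes with an unadjusted p below 0.05, the 2 largest differences per list among genes above background on all arrays, and each enzyme's 3 nearest genes. Prdx3, Txnrd2, Gpx2, Pxmp2 and single markers were chosen after their values were seen. Members, lists and tests were chosen with earlier results of these data known. Alternatives covered background, normalization, filter, spot marks, weights, header day and each rat left out. The number of arrays limits the precision.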

Additional observations from a re-analysis of the deposited data

How the results depend on the processing

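No paired analysis was possible because the groups share no rat numbers. No enzyme probe passed an adjusted p of 0.05 under any alternative that could test it. Over all probes the count was 2 with marked spots left out, where no enzyme probe could be tested, and 0 to 3 with a rat left out (3 without solvent rat 1). The header day as a block gave the values without solvent rat 7. Sod3, Sod1 GE20304, Gpx1, Gpx4 and Gpx3 GE1306303 kept their direction under each alternative that could test them except the deposited table, which turned all of these but Sod3; there the median of all probes was 0.698.

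With a rat left out, values ranged from -0.58 to 0.035 for Sod1 GE21779, -0.037 to 0.23 for Sod2, -0.56 to -0.049 for Gpx1, -0.56 to -0.28 for Gpx4, 0.49 to 0.87 for Sod3, -0.17 to 0.20 for Gpx3 GE21540, -0.32 to 0.15 for Ero1a, -1.04 to 0.014 for Selenow and -0.055 to 0.19 for Tfam. Pairs ranged from -0.10 to 0.26 for Gpx3 against Gpx1, -0.23 to 0.046 for Gpx4 against Gpx1, -0.019 to 0.32 for Cat against Gpx1 and -0.10 to 0.37 for Cat against Sod1. List medians ranged from -0.31 to 0.014 for partners (highest without rotenone rat 16), -0.063 to 0.079 for sources (rotenone rat 9), -0.074 to 0.14 for regulators (rotenone rat 16) and -0.20 to 0.014 for the peroxisome (solvent rat 7).

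The table as deposited gave 2.91 and 3.33 for Sod1 GE21779 and GE20304, 3.14 for Gpx1, 0.52 for Gpx3 GE1306303, 2.86 for Gpx4, 1.20 for Prdx2, 0.47 for Ero1a and 0.69 for Hacl1. Its pairs were -0.66 for Sod2 against Sod1, -0.62 for Sod3 against Sod1, -2.61 for Gpx3 against Gpx1, -2.34 for Gpx3 against Gpx4, and -4.82 and -4.59 for Cat against Gpx1 and Sod1. The Cat pairs also turned, in that order, with plain subtraction (-1.21 and -1.19), an offset of 16 (-0.034 and -0.0089) and the authors' scaled intensity (-1.19 and -1.24). Gpx4 against Gpx1 turned with median scaling (0.0083) and the scaled intensity (0.027). Tfam turned with median scaling (-0.065) and the header day as a block (-0.032). The cause of these turns was not tested.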
